A study of Mus musculus with 36 samples.

Results

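The endoplasmic reticulum (ER) folds the proteins that a cell secretes or puts into its membranes, and 32 genes of that folding machinery and of its stress response are described here in mouse epididymal white adipose tissue. A gene belongs to this list by its name, with no measured value in the rule, although the list itself was drawn up with earlier results of these data known. The genes were found by the gene name of the probes on the array, 3 of them under older names (Manf as Armet, Dnajc3 as Dnajc3a, Ppp1r15a as Myd116). They were 32 of the 27591 genes on the array, had 56 probes, of which 55 passed the filter on dim spots, and all 32 were among the 16497 genes tested. By role they comprised 10 chaperones and their helpers, 7 genes of disulfide bond formation and its helpers, 2 genes of protein translocation, 4 genes of ER-associated degradation (ERAD), 3 stress sensors and 6 stress factors and targets.

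Tissue came from 36 adult male C57BL/6J mice, an inbred strain, 12 in each of 3 groups, all fed a purified diet with 30 energy percent fat. Every mouse ate without restriction for 3 weeks, and the t=0 group was killed at that point. The HF-AL group went on eating ad libitum for 12 weeks, and the HF-DR group ate a restricted ration, set at 70 energy percent, for the same 12 weeks, with extra vitamins and minerals so that their intake did not drop. HF-AL and HF-DR mice were thus 12 weeks older than t=0 mice, so that against t=0 age cannot be told apart from what the mice ate. The time of day and the time since the last meal at killing are not given in the sources used here.

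Each array compared the Cy5-labelled RNA of 1 animal with a Cy3-labelled pool of all the animals' RNA, in 1 dye orientation throughout. A value is therefore a log2 ratio to that pool, where 0 is the pool and 1 is a doubling, and a ratio of 1 gene cannot be ranked against that of another gene. Differences between groups are differences of mean log2 ratios from a limma fit over all genes, given ± the standard error of the difference (SE). A gene is said to have risen or fallen where its Benjamini-Hochberg adjusted p over the 16497 genes was under 0.05. These p-values measure the spread between animals. Of the members' values, 15 were missing because their spots were flagged as outliers, and the fits of these genes rest on the remaining animals: 4 of Canx, 3 of Pdia3 (HF-DR 6, HF-DR 9 and 1 HF-AL animal), 2 each of Hspa5, Hyou1 and Creld2 (the last 2 genes including HF-DR 9) and 1 each of Dnajb11 and Pdia4. In bulk tissue, fewer cells of a type and less RNA per cell cannot be told apart.

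In the ER lumen, chaperones bind unfolded chains, disulfide isomerases pair their cysteines, and chains that fail to fold are sent back to the cytosol for degradation. When unfolded protein builds up, the membrane sensors Ern1, Eif2ak3 and Atf6 signal to the nucleus: Ern1 splices the Xbp1 transcript, Atf6 is cut free as a transcription factor, and Eif2ak3 slows translation while favouring that of Atf4. Adipocytes secrete hormones and make matrix proteins through this route, and Eif2ak3 shares its substrate with kinases that sense amino acid shortage, haem and viral RNA, so that Atf4 also belongs to a wider stress response.

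The classical element through which unfolded protein acts on chaperone promoters is the ER stress response element (ERSE), CCAAT, 9 bases of any kind and CCACG. It was searched on both strands of RefSeq promoter windows of GRCm38.p6, which run from 250 bases before to 50 bases after a gene's start. Windows of 29 of the 32 genes were used, and 8 of them (27.6%) held an ERSE, against 39 of all 32851 windows (0.119%). The matches of these 8 genes are shown for how they lay by role: 5 of 8 chaperones, 2 of 7 disulfide genes and 1 of 4 ERAD genes held one, and 0 of 8 sensors and stress factors did. Each is written 5′ to 3′ on the strand of the element, with the fixed bases in capitals.
Hspa5: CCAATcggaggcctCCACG
Hsp90b1 upstream match: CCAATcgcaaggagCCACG
Hsp90b1 downstream match: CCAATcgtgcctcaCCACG
Dnajc3: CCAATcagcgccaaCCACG
Calr: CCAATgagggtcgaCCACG
Canx: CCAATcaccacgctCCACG
Pdia6: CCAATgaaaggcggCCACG
Creld2: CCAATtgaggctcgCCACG
Syvn1: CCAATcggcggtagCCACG

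These matches lay at chr2:34772025-34772043 (Hspa5), chr10:86705638-86705656 and chr10:86705533-86705551 (Hsp90b1), chr14:118937827-118937845 (Dnajc3), chr8:84847075-84847093 (Calr), chr11:50325800-50325818 (Canx), chr12:17266491-17266509 (Pdia6), chr15:88819520-88819538 (Creld2) and chr19:6046532-6046550 (Syvn1). The second Hsp90b1 match and those of Calr and Creld2 ran against the direction of their gene. ERSE-II, a related element spelled ATTGG, 1 base of any kind and CCACG, was found in 2 of the 29 windows (6.9%) against 12 of all windows (0.0365%), in Dnajb11 at chr16:22857852-22857862 and in Herpud1 at chr8:94386377-94386387.
Dnajb11: ATTGGcCCACG
Herpud1: ATTGGgCCACG

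Other motifs were searched in the same way. The CCAAT box, which every ERSE contains, was in 21 of 29 windows (72.4%) and in 37.4% of all windows. TGATGNAAN, the C/EBP-ATF composite element known from targets of Atf4, was in the windows of Atf3, Trib3 and Herpud1 (10.3%) and in 3.95% of all windows. TGACGTCA, a cyclic AMP response element, was in that of Ppp1r15a (3.45%) and in 1.79% of all windows. TGACGTGG, the core of the element bound by Xbp1, was in 0 of 29 and in 0.676% of all windows. A match of letters is a description and shows no binding.

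The 250 bases upstream of the start are printed for 5 genes, on the gene's strand, with matches to ERSE, ERSE-II, TGATGNAAN and TGACGTCA in capitals and other CCAAT boxes left in lower case. Hspa5 (chr2:34771840-34772089, plus strand) and Hsp90b1 (chr10:86705445-86705694, minus strand) encode the main chaperones of the ER lumen, and Hsp90b1 was the gene with 2 ERSE matches. Herpud1 (chr8:94386179-94386428, plus strand) held both an ERSE-II and a C/EBP-ATF composite element, Syvn1 (chr19:6046326-6046575, plus strand) the ERAD genes' ERSE, and Ppp1r15a (chr7:45526269-45526518, minus strand) the TGACGTCA of a stress factor.
Hspa5 upstream: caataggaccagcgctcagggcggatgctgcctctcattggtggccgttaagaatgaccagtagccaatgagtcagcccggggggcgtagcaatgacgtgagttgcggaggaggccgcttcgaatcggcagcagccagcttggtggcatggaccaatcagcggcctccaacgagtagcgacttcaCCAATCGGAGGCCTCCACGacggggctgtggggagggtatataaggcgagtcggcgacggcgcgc
Hsp90b1 upstream: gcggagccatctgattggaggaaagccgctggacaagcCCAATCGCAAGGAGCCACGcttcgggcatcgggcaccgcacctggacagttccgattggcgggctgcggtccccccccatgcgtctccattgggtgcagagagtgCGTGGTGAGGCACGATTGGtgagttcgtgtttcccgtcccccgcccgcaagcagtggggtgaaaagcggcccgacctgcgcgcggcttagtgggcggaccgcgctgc
Herpud1 upstream: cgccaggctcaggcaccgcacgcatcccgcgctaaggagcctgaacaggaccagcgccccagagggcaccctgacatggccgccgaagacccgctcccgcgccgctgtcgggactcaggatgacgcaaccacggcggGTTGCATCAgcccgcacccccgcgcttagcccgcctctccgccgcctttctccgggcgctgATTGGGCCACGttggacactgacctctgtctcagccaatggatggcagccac
Syvn1 upstream: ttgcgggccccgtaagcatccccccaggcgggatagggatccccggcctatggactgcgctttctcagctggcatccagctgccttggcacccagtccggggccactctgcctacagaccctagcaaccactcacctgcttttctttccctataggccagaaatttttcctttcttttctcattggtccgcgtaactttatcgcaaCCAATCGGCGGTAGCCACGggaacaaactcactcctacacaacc
Ppp1r15a upstream: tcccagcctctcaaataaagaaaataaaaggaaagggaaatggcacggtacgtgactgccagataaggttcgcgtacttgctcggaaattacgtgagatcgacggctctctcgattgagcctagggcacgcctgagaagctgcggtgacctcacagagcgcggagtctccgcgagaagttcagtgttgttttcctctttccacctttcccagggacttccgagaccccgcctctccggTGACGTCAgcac

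Before the groups are compared, 2 arrays have to be described, because many of these genes stood apart on them. On HF-DR 8 and HF-DR 9, the mean log2 ratio of 8 transcripts of the male reproductive tract (Pate4, Wfdc15a and the seminal vesicle secretory genes Svs1, Svs2, Svs3a, Svs4, Svs5 and Svs6, 8 of 15 such markers listed) was 5.14 and 4.66. It ran from -4.58 to -0.53 on the other 10 HF-DR arrays and from -4.80 to -2.38 on the 24 arrays of HF-AL and t=0. The mean of 10 adipocyte markers was -1.19 and -1.07 on the same arrays, -0.20 to 0.04 on the other 10 HF-DR arrays and -0.13 to 0.48 on the 24 others. Each of those 10 adipocyte markers was well above background on all 36 arrays. So were Pate4 and the Svs genes named, while Wfdc15a was so on 10 t=0, 4 HF-AL and 3 HF-DR arrays. The mean of 5 testis markers was -0.47 and -0.08 on HF-DR 8 and HF-DR 9 and reached 2.46 on an HF-AL array.

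Of the 29 members measured on both arrays, 22 (75.9%) were higher on each of them than on any of the 34 other arrays, and 0 were lower than on all of those. Of 16022 genes measured on both, 10.2% were higher and 13.9% lower in that way. Sdf2l1, a partner of the luminal co-chaperones, was at 2.35 and 2.71 on these arrays and at most 0.36 on the other 34. Manf, a secreted ER stress protein, was at 2.24 and 2.26 and at most 0.32 elsewhere. Hspa5 (BiP), the Hsp70 of the ER lumen, was at 2.13 and 1.97 and at most 0.55 elsewhere. The male tract transcripts moved with these values, and their part in the members' levels was not tested. The members' differences and the counts of genes that use HF-DR animals are therefore given with and without the 2 arrays, a comparison chosen after seeing the data.

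**Figure D1:**
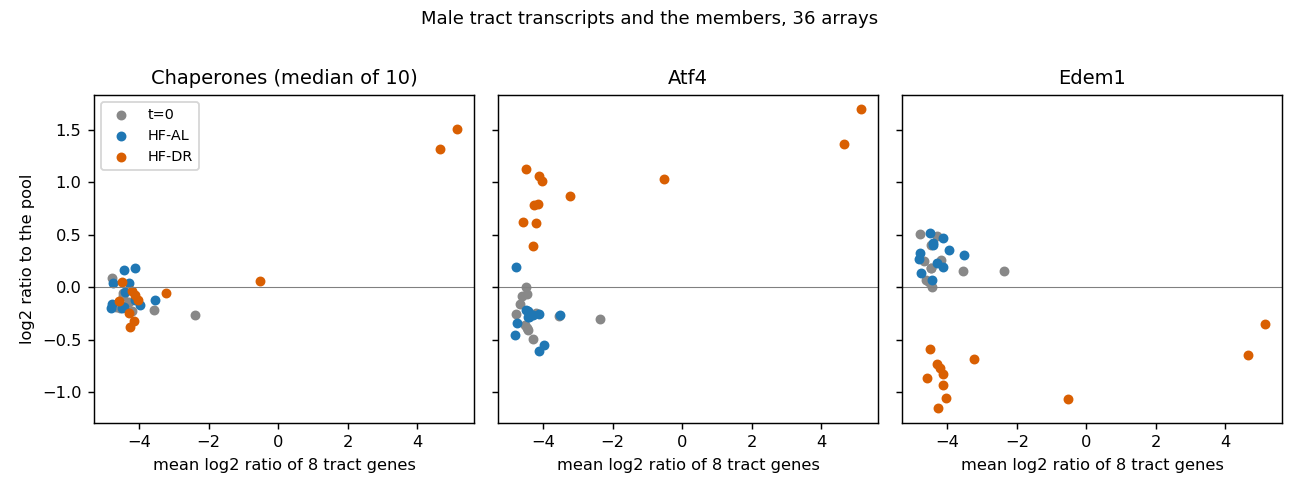
Each point is 1 of the 36 arrays, with the mean log2 ratio of 8 male tract genes on the x axis and, on the y axis, the median log2 ratio of the 10 chaperones, the log2 ratio of Atf4 or that of Edem1. HF-DR 8 and HF-DR 9 lie to the right at 5.14 and 4.66 and hold the highest chaperone medians, while Atf4 is high and Edem1 low on the other HF-DR arrays too.

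The classes stood apart on these arrays to different degrees. The mean of the 2 arrays exceeded the mean of the other 10 HF-DR arrays by a median of 1.48 over 9 chaperones, with 8 of the 9 above all other arrays. The same excess had a median of 1.50 over 5 disulfide genes, 1.05 over the 2 translocation genes, 0.90 over the 4 ERAD genes, 1.28 over the 3 sensors and 0.36 over the 6 stress factors. Canx, the membrane lectin chaperone, Ddit3 and Trib3 did not share it, at -0.03, -0.25 and -0.08. The value of Canx is that of its brightest probe, and its 3 probes gave -0.14 to 0.37 between HF-DR and HF-AL with all arrays. As a description, the genes of folding were high on both arrays and most stress factors were less so.

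Between HF-DR and HF-AL, 8 of 32 members rose, 3 fell and 21 did not pass the test, where 64.8% of all genes tested changed (28.8% up, 35.9% down). A share of 11 in 32 was thus below that background. The median difference of the members was 0.05, and that of all genes was -0.04. Without HF-DR 8 and HF-DR 9, 5 rose, 13 fell and the median was -0.13, where 68.9% of all genes changed (30.5% up, 38.4% down) with a median of -0.05. Atf4, Ppp1r15a, Ddit3, Dnajb9 and Ero1l rose, and Edem1, Syvn1 and Eif2ak3 fell, with and without the 2 arrays. Dnajb11, Dnajc3 and Ern1 rose with the 2 arrays and did not pass without them, while Atf6, Herpud1, Hsp90b1, P4hb, Pdia3, Pdia4, Pdia5, Pdia6, Sdf2l1 and Sel1l fell without them and did not pass with them. Leaving out the arrays lowered the estimate for 29 of the 32 genes. The 2 arrays were set apart because many of these genes were high on them, so lower estimates without them follow from that choice. The falls called only without them carry the same limit.

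**Figure D2:**
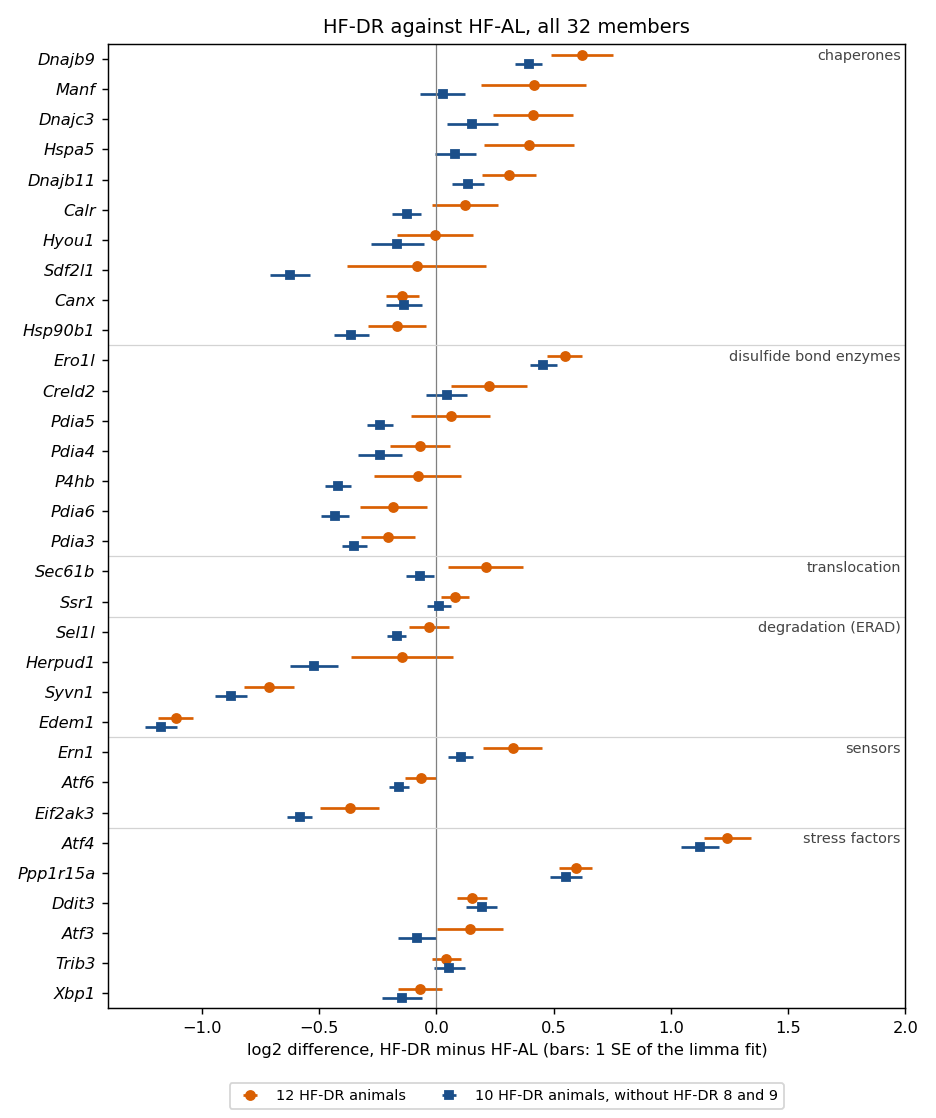
The log2 difference HF-DR minus HF-AL of each of the 32 members, by class, with bars of 1 SE of the limma fit, from 12 HF-DR animals (circles) and from 10, without HF-DR 8 and HF-DR 9 (squares). Atf4 lies at 1.24 and 1.12 and Edem1 at -1.11 and -1.17, whereas Sdf2l1 goes from -0.09 to -0.62.

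Among the chaperones, Dnajb9 rose against HF-AL in both fits and Dnajb11 and Dnajc3 only with the 2 arrays. No other chaperone passed as risen in either fit. With the 2 arrays 3 of 10 rose and 0 fell (median difference 0.22), and without them 1 rose and 2 fell (median -0.05). Of all genes, 28.8% rose and 35.9% fell with the 2 arrays, and 30.5% rose and 38.4% fell without them. Dnajb9 (ERdj4) is a J-domain co-chaperone of Hspa5 and a target of spliced Xbp1. Its log2 ratio ran from -0.48 to -0.04 in HF-AL (median -0.22), from -0.39 to 0.10 at t=0 (median -0.32) and from -0.09 to 1.76 in HF-DR (median 0.23). The HF-DR animals lay mostly above the others, with overlap at the low end. It rose by 0.62 ± 0.13 against HF-AL (limma, adjusted p = 0.000106) and by 0.39 ± 0.06 without the 2 arrays (limma, adjusted p = 2.26e-07).

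Dnajb11 (ERdj3), another co-chaperone of Hspa5, ran from -0.53 to 0.22 in HF-AL (median -0.18), from -0.42 to -0.10 at t=0 (median -0.17) and from -0.22 to 1.08 in HF-DR (median -0.02). Dnajc3 (p58IPK), which also inhibits Eif2ak3, ran from -0.59 to 0.28 in HF-AL (median -0.17), from -0.60 to 0.10 at t=0 (median -0.21) and from -0.57 to 1.70 in HF-DR (median 0.11). Both groups of values overlapped widely with HF-AL once HF-DR 8 and HF-DR 9 were set aside. Dnajb11 rose by 0.31 ± 0.12 (limma, adjusted p = 0.0188) and Dnajc3 by 0.41 ± 0.17 (limma, adjusted p = 0.0341). Without the 2 arrays the differences were 0.13 ± 0.07 and 0.15 ± 0.11, and neither passed (limma, adjusted p = 0.0804 and 0.216).

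Hspa5 ran from -0.19 to 0.39 in HF-AL (median 0.09), from -0.36 to 0.10 at t=0 (median -0.13) and from -0.31 to 2.13 in HF-DR (median 0.21). The 10 other HF-DR animals, at -0.31 to 0.55, lay across the HF-AL range. Its difference from HF-AL was 0.40 ± 0.19 and did not pass (limma, adjusted p = 0.0702), nor did the 0.08 ± 0.09 without the 2 arrays (limma, adjusted p = 0.417). That call held in 13 of 16 alternative settings, and the difference ran from 0.08 to 0.68 over all settings. Manf ran from -0.45 to 0.25 in HF-AL (median -0.09), from -0.50 to 0.32 at t=0 (median -0.30) and from -0.50 to 2.26 in HF-DR (median 0.0019). It differed by 0.41 ± 0.22 from HF-AL with the 2 arrays and by 0.03 ± 0.10 without, neither past the threshold (limma, adjusted p = 0.101 and 0.815).

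Hsp90b1 (GRP94), the Hsp90 of the ER lumen, and Sdf2l1 passed the test without the 2 arrays but not with them. Hsp90b1 differed by -0.17 ± 0.12 in all (limma, adjusted p = 0.23) and fell by 0.36 ± 0.08 without them (limma, adjusted p = 6.92e-05). Sdf2l1 differed by -0.09 ± 0.29 in all (limma, adjusted p = 0.815) and fell by 0.62 ± 0.09 without them (limma, adjusted p = 7.39e-08). The 10 other HF-DR animals had Sdf2l1 at -1.23 to -0.52 (median -0.67), below every HF-AL animal, the lowest of which was at -0.33. The share of all genes set apart in this way without the 2 arrays was not counted. Calr, the soluble lectin chaperone, Canx and Hyou1, an exchange factor for Hspa5, did not pass in either fit. Their differences with all arrays were 0.12, -0.14 and -0.01, and without the 2 arrays -0.13, -0.14 and -0.17.

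Among the genes of disulfide bond formation, Ero1l rose and the isomerases did not. Ero1l (now Ero1a), the oxidase that passes oxidising equivalents to the isomerases, ran from -0.23 to 0.19 in HF-AL (median -0.08), from -0.12 to 0.26 at t=0 (median 0.03) and from 0.13 to 1.03 in HF-DR (median 0.47). The lowest HF-DR animal fell just inside the HF-AL range. It rose by 0.55 ± 0.07, 1.46-fold (limma, adjusted p = 4.77e-08), and by 0.46 ± 0.06 without the 2 arrays (limma, adjusted p = 2.55e-08).

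The isomerases P4hb (PDI), Pdia3, Pdia4, Pdia5 and Pdia6 differed by -0.21 to 0.06 from HF-AL with all arrays, and 0 of the 5 passed (limma, lowest adjusted p = 0.112). Without the 2 arrays all 5 fell, by 0.42 ± 0.06 for P4hb, 0.35 ± 0.05 for Pdia3, 0.24 ± 0.09 for Pdia4, 0.24 ± 0.06 for Pdia5 and 0.43 ± 0.06 for Pdia6 (limma, highest adjusted p = 0.0241). Of all genes, 38.4% fell in that fit. P4hb lay at -0.69 to -0.33 in the 10 other HF-DR animals and at -0.29 to 0.20 in HF-AL, without overlap. Pdia6 lay at -0.53 to -0.08 and at -0.06 to 0.34, again without overlap. How many of all genes lay without overlap in these 10 animals was not counted, so these separations have no background. P4hb was at 1.49 and 1.54 and Pdia6 at 1.30 and 1.14 on HF-DR 8 and HF-DR 9, above every other animal. Creld2, a secreted ER stress protein with isomerase-like activity, ran from -0.64 to 0.15 in HF-AL (median -0.16), from -0.77 to -0.05 at t=0 (median -0.35) and from -0.44 to 1.86 in HF-DR (median -0.15), and did not pass (difference 0.22 ± 0.16; 0.04 ± 0.09 without the 2 arrays).

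**Figure D3:**
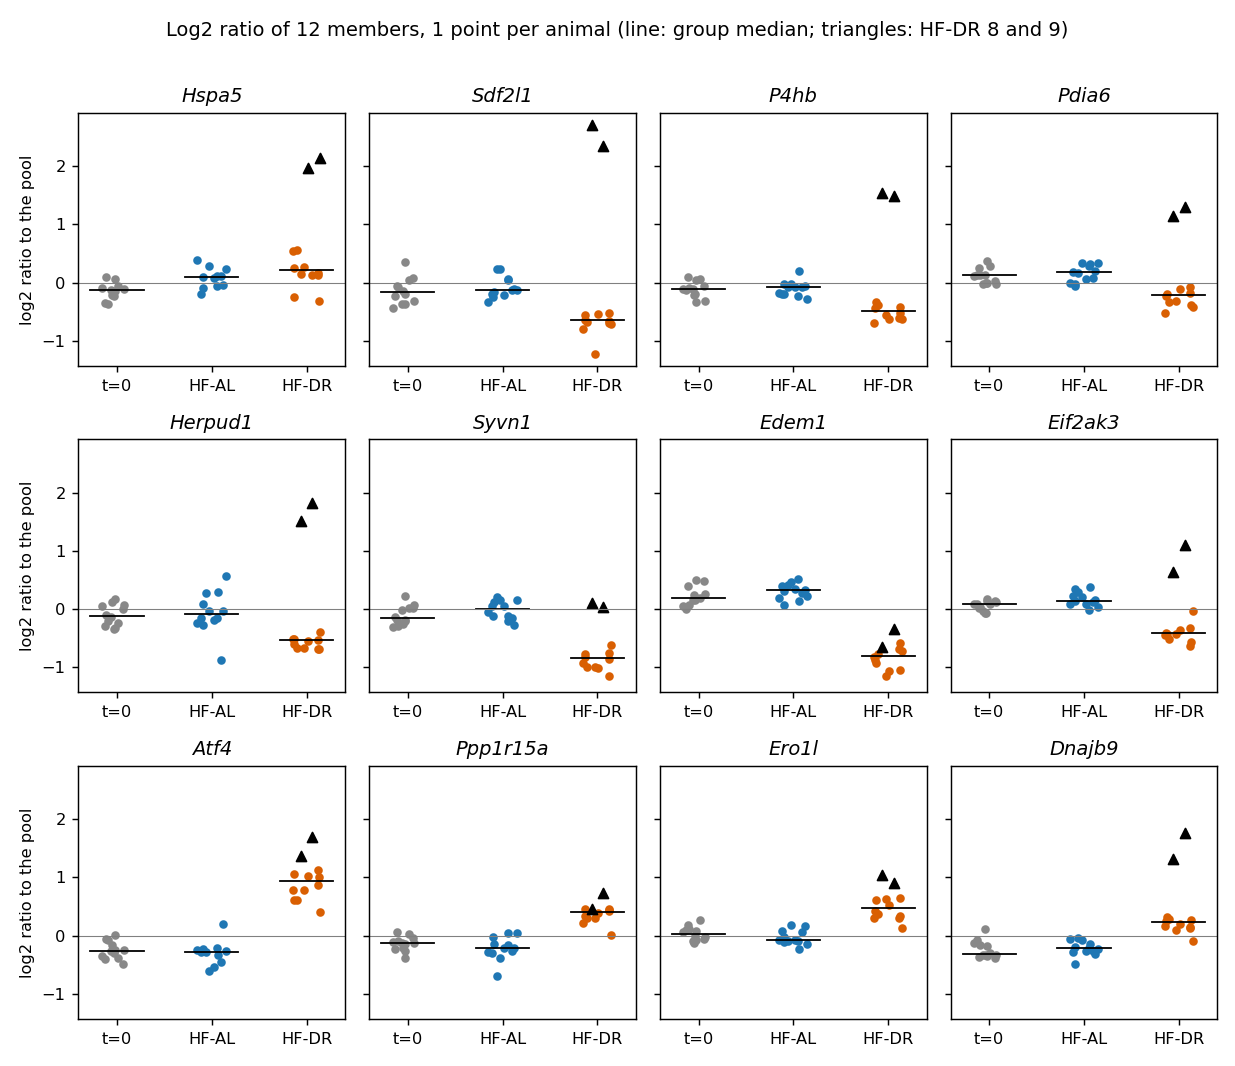
Log2 ratio to the pool of 12 members, 1 point per animal in each group, with a line at the group median and triangles for HF-DR 8 and HF-DR 9. In HF-DR, Sdf2l1, P4hb, Pdia6, Herpud1 and Eif2ak3 are low in 10 animals and high in the 2 marked ones, Edem1 is low in all 12, and Atf4 is high in all 12.

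The translocation genes did not pass the test in either fit. Sec61b, a subunit of the protein-conducting channel, differed by 0.21 ± 0.16 (-0.07 ± 0.06 without the 2 arrays), and Ssr1, a subunit of the translocon-associated complex, by 0.08 ± 0.06 (0.01 ± 0.05 without).

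Of the 4 ERAD genes, Edem1 and Syvn1 fell with all arrays (median difference of the 4, -0.43), where 35.9% of all genes fell. Without the 2 arrays all 4 fell (median -0.70), where 38.4% of all genes did. Edem1, a lectin that hands misfolded glycoproteins to degradation, ran from 0.07 to 0.52 in HF-AL (median 0.32), from 0.0034 to 0.51 at t=0 (median 0.19) and from -1.15 to -0.35 in HF-DR (median -0.80). Every HF-DR animal, HF-DR 8 and HF-DR 9 included, was below every animal of the other groups. It was 2.16-fold lower than in HF-AL, a difference of -1.11 ± 0.07 (limma, adjusted p = 1.26e-15), and -1.17 ± 0.07 without the 2 arrays (limma, adjusted p = 4.57e-17). With all arrays, groups without overlap were found for 14.4% of all genes between HF-DR and HF-AL, and for Edem1 and Atf4 among the 32 members. No such share was counted without the 2 arrays.

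Syvn1 (HRD1), the ubiquitin ligase of ERAD, ran from -0.27 to 0.20 in HF-AL (median -0.00060), from -0.31 to 0.23 at t=0 (median -0.16) and from -1.14 to 0.11 in HF-DR (median -0.84). The 2 arrays set apart were at 0.04 and 0.11, inside the HF-AL range, and the other 10 were below every HF-AL animal. It fell by 0.71 ± 0.11 (limma, adjusted p = 3.01e-07) and by 0.88 ± 0.07 without the 2 arrays (limma, adjusted p = 1.11e-13). Herpud1, which assembles the Syvn1 complex, differed by -0.15 ± 0.22 (limma, adjusted p = 0.573) and fell by 0.52 ± 0.10 without the 2 arrays (limma, adjusted p = 2.86e-05). Sel1l, the cofactor that stabilises Syvn1, differed by -0.03 ± 0.08 (limma, adjusted p = 0.755) and fell by 0.17 ± 0.04 without them (limma, adjusted p = 0.000429).

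Probes of a gene did not always give the same difference, and the brightest of each gene was used. The values of this paragraph are from all arrays. The 3 Edem1 probes lay on chromosome 6 of mm8, per the file headers, at 108824703-108824762 (the one used), 108822675-108822734 and 108820045-108820104, and gave -1.11, -0.33 and 0.05 between HF-DR and HF-AL. The 2 Syvn1 probes, on chromosome 19 at 6053568-6053627 (the one used) and 6047993-6048052, gave -0.71 and -0.05. Both genes' probes are on the plus strand, where the probe used, with the largest fall, lay furthest downstream. Of 14 members with several probes, 6 had probes of opposite sign between HF-DR and HF-AL: Atf6, Canx, Edem1, Pdia6, Sel1l and Ssr1. Atf4, Ppp1r15a, Sdf2l1 and Hspa5 had 1 probe each.

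The sensors moved in different directions. Eif2ak3 (PERK), the sensor kinase upstream of Atf4, ran from -0.02 to 0.37 in HF-AL (median 0.15), from -0.06 to 0.17 at t=0 (median 0.08) and from -0.64 to 1.10 in HF-DR (median -0.42). The 2 arrays set apart, at 1.10 and 0.63, were the highest of all 36, and the other 10 lay below every HF-AL animal. How many of all genes separated these 10 from HF-AL was not counted. It fell by 0.37 ± 0.12 (limma, adjusted p = 0.00962) and by 0.58 ± 0.05 without the 2 arrays (limma, adjusted p = 1.01e-11).

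Ern1 (IRE1 alpha), the sensor that splices Xbp1, ran from -0.27 to 0.28 in HF-AL (median -0.04), from -0.13 to 0.0045 at t=0 (median -0.03) and from -0.12 to 1.53 in HF-DR (median 0.11). It rose by 0.32 ± 0.13 (limma, adjusted p = 0.0253), and its 0.10 ± 0.05 without the 2 arrays did not pass (limma, adjusted p = 0.0887). Atf6, the sensor that is cleaved into a transcription factor, differed by -0.07 ± 0.07 (limma, adjusted p = 0.368) and fell by 0.16 ± 0.04 without the 2 arrays (limma, adjusted p = 0.00147). Its other probe gave 0.42 with all arrays.

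Among the stress factors and targets, 3 of 6 rose and 0 fell in both fits, where 28.8% of all genes rose (30.5% without the 2 arrays). The median difference of the 6 was 0.15 (0.12 without the 2 arrays). Of the 3, Atf4 and Ppp1r15a kept the call in all 16 alternative settings and Ddit3 in 9. Atf4, the factor whose translation increases when Eif2ak3 and related kinases are active, ran from -0.61 to 0.19 in HF-AL (median -0.27), from -0.50 to 0.01 at t=0 (median -0.26) and from 0.40 to 1.69 in HF-DR (median 0.94). Every HF-DR animal was above every animal of the other groups. It rose by 1.24 ± 0.10, 2.36-fold (limma, adjusted p = 2.59e-13), and by 1.12 ± 0.08 without the 2 arrays (limma, adjusted p = 2.3e-14).

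Ppp1r15a (GADD34), which brings a phosphatase to the translation factor that Eif2ak3 phosphorylates, ran from -0.69 to 0.04 in HF-AL (median -0.22), from -0.39 to 0.06 at t=0 (median -0.13) and from 0.0023 to 0.72 in HF-DR (median 0.40). A few animals overlapped at the edge of the ranges. It rose by 0.59 ± 0.07, 1.51-fold (limma, adjusted p = 2.11e-09), and by 0.55 ± 0.07 without the 2 arrays (limma, adjusted p = 8.47e-09). Ddit3 (CHOP), a factor linked to cell death under long stress, ran from -0.19 to 0.46 in HF-AL (median 0.14), from -0.21 to 0.25 at t=0 (median 0.02) and from -0.02 to 0.48 in HF-DR (median 0.35). Its rise was small, 0.15 ± 0.07 (limma, adjusted p = 0.0412) and 0.19 ± 0.07 without the 2 arrays (limma, adjusted p = 0.00945), with wide overlap. The call did not hold in 7 of 16 alternative settings: with median centring the difference was 0.07 (limma, adjusted p = 0.464), and in the fit blocked by slide it was 0.14 (limma, adjusted p = 0.252).

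Atf3, a further stress-induced factor, Trib3, a pseudokinase induced by Atf4 and Ddit3, and Xbp1, whose spliced form drives ERAD and chaperone genes, did not pass in either fit. Their differences from HF-AL were 0.14 ± 0.14, 0.04 ± 0.06 and -0.07 ± 0.09, and without the 2 arrays -0.08 ± 0.08, 0.06 ± 0.07 and -0.15 ± 0.09. The splicing of Xbp1 was not analysed here.

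Set side by side, the folding and degradation classes and the stress factors differed in how the 10 remaining HF-DR animals lay against HF-AL. The median over the ERAD genes of an animal ran from -0.87 to -0.51 in these 10 and from -0.06 to 0.29 in HF-AL, without overlap. How many of all genes lay apart in this way in these 10 was not counted. The median over the disulfide genes ran from -0.53 to -0.10 in these 10 and from -0.20 to 0.12 in HF-AL. Over the 10 chaperones it ran from -0.38 to 0.06 and from -0.20 to 0.19, and over the 3 sensors from -0.12 to -0.0017 and from -0.11 to 0.28. The median over the 6 stress factors ran from 0.01 to 0.23 in these 10 and from -0.25 to 0.19 in HF-AL. With HF-DR 8 and HF-DR 9 included, the highest HF-DR value became 1.51 for the chaperones, 1.30 for the disulfide genes, 0.49 for the ERAD genes, 1.10 for the sensors and 0.54 for the stress factors. The classes share animals and arrays, and no test was made between them.

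**Figure D4:**
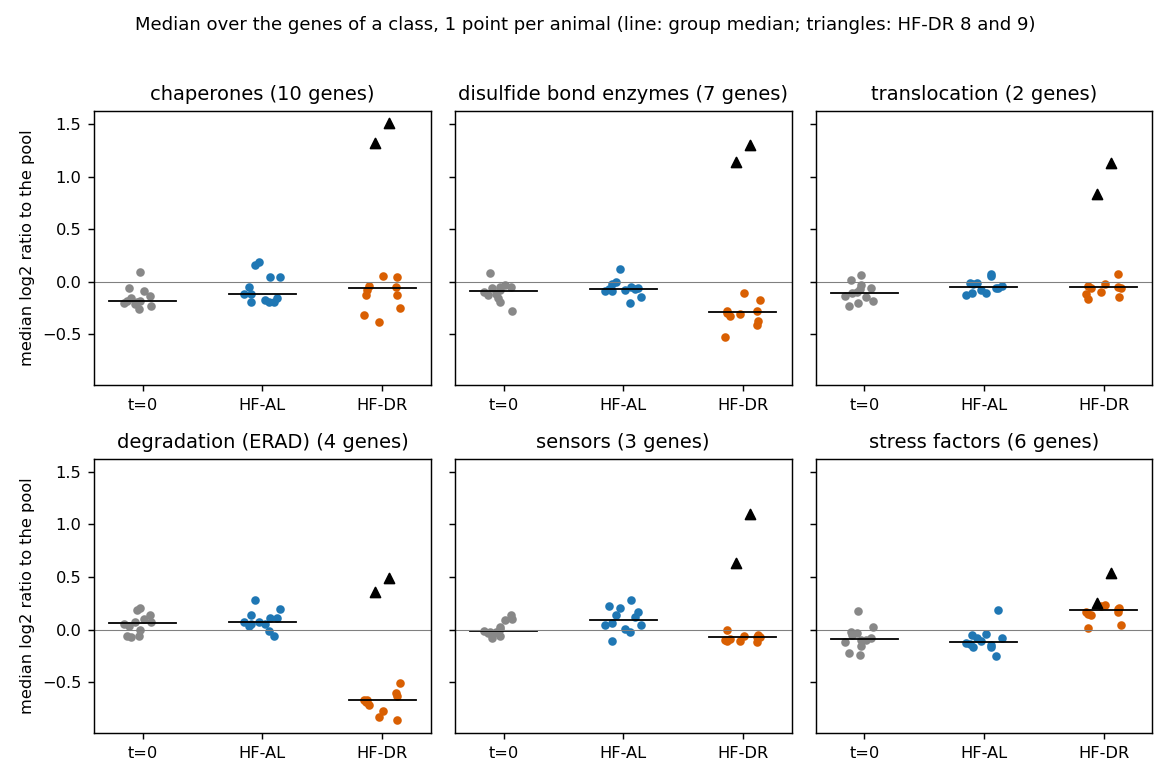
The median log2 ratio over the genes of each of 6 classes, 1 point per animal, with a line at the group median and triangles for HF-DR 8 and HF-DR 9. The ERAD medians of the 10 other HF-DR animals lie at -0.87 to -0.51, below all HF-AL animals, and the stress factor medians of HF-DR lie at 0.01 to 0.54.

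The 10 genes with an ERSE or ERSE-II in the windows shown above had differences from -0.71 to 0.41 between HF-DR and HF-AL (median -0.01), with 2 that rose and 1 that fell. Without the 2 arrays they ran from -0.88 to 0.15 (median -0.13), with 0 that rose and 4 that fell. The 19 genes with neither element ran from -1.11 to 1.24 (median 0.06), with 6 that rose and 2 that fell, and from -1.17 to 1.12 without the 2 arrays (median -0.08), with 5 that rose and 8 that fell. Of all genes, 28.8% rose and 35.9% fell, and without the 2 arrays 30.5% rose and 38.4% fell. Among the ERSE genes whose promoters are printed, Syvn1 fell in both fits, Hsp90b1 fell without the 2 arrays and Hspa5 passed in neither.

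The arrays lay on 21 slides, and 9 arrays, 6 of HF-DR and 3 of HF-AL, were alone on their slide. HF-DR 8 and HF-DR 9 were among these 9, for which no comparison within a slide was possible. HF-DR and HF-AL shared 3 slides, none of which held HF-DR 8 or HF-DR 9. Within each of these 3 slides Atf4 was higher in HF-DR (0.68 to 1.34), as were Ppp1r15a (0.59 to 0.63), Ero1l (0.14 to 0.45), Dnajb9 (0.35 to 0.45) and Hspa5 (0.03 to 0.58). Edem1 was lower on all 3 (-1.10 to -0.96), as were Syvn1 (-0.96 to -0.55), Eif2ak3 (-0.80 to -0.30), Herpud1 (-0.53 to -0.44), Sdf2l1 (-0.57 to -0.34), P4hb (-0.55 to -0.18) and Pdia6 (-0.38 to -0.32). Members called in a fit above did not all keep 1 direction on these slides. Ddit3 was lower on 1 of 3 (-0.22 to 0.51), Dnajc3 on 1 (-0.20 to 0.57) and Ern1 on 1 (-0.11 to 0.17), while Hsp90b1 was higher on 1 (-0.19 to 0.27) and Pdia4 on 2 (-0.50 to 0.19). Averaged over the 3 slides, the class medians were 0.16 for chaperones, -0.22 for disulfide genes, 0.03 for translocation, -0.59 for ERAD, -0.18 for sensors and 0.19 for stress factors.

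After 12 more weeks of ad libitum feeding, 0 of 32 members passed the threshold between HF-AL and t=0, where 0.685% of all genes did. Groups without overlap were found for 0.0424% of all genes and for 0 members. The differences ran from -0.23 to 0.22 with a median of 0.05, 26 of 32 were positive, and 0 had an unadjusted p under 0.05 (limma). The SE and p of this fit rest on 1 spread shared by all 3 groups, HF-DR 8 and HF-DR 9 included. The members' median SD within a group was 0.50 in HF-DR, 0.16 in HF-AL and 0.15 at t=0. This fit can therefore miss differences between HF-AL and t=0. In a fit of these 2 groups alone, 1.85% of all genes changed and also 0 members. In the fit without HF-DR 8 and HF-DR 9, 2.59% of all genes changed (1.41% up, 1.18% down) and again 0 members. The largest differences were those of Atf3 (-0.23 ± 0.14), Hspa5 (0.22 ± 0.20) and Creld2 (0.21 ± 0.16).

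Between HF-DR and t=0, a comparison that shares the HF-DR animals with the one above, 11 members rose and 2 fell, where 61.8% of all genes changed (28.8% up, 33% down). Groups without overlap were found for 16.6% of all genes, and for Atf4 and Edem1 among the members. Without the 2 arrays 10 rose and 14 fell, where 65.5% of all genes changed (30.4% up, 35.2% down). Atf4 rose by 1.20 ± 0.10 (1.08 ± 0.08 without), Ppp1r15a by 0.51 ± 0.07 (0.47 ± 0.07) and Ero1l by 0.48 ± 0.07 (0.39 ± 0.06). Edem1 fell by 1.03 ± 0.07 (1.09 ± 0.07 without) and Syvn1 by 0.63 ± 0.11 (0.79 ± 0.07).

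Chaperones lay higher against t=0 than against HF-AL in these estimates, and that step itself was not past the threshold. Within slides the averages had the reverse order, but over different HF-DR animals. The chaperone class median averaged -0.03 over the 6 slides shared by HF-DR and t=0 (-0.32 to 0.27), which held HF-DR 1 to HF-DR 6. Over the 3 slides shared with HF-AL, which held HF-DR 1 to HF-DR 3, it averaged 0.16 (0.08 to 0.27). These averages therefore cannot settle the order. Hspa5 rose by 0.62 ± 0.19 against t=0 (limma, adjusted p = 0.00576) and by 0.30 ± 0.09 without the 2 arrays (limma, adjusted p = 0.00297). Creld2, of the disulfide genes, rose by 0.43 ± 0.16 (limma, adjusted p = 0.0183) and by 0.25 ± 0.09 without (limma, adjusted p = 0.0105). Manf rose by 0.58 ± 0.22 (limma, adjusted p = 0.0229) and did not pass without them (0.19 ± 0.10; limma, adjusted p = 0.0758). Other members that rose against t=0 in both fits were Dnajb9 by 0.64 ± 0.13 (0.42 ± 0.06 without the 2 arrays), Dnajb11 by 0.36 ± 0.11 (0.18 ± 0.07), Dnajc3 by 0.51 ± 0.17 (0.26 ± 0.11), Ern1 by 0.35 ± 0.13 (0.13 ± 0.05) and Ddit3 by 0.25 ± 0.07 (0.29 ± 0.07). Eif2ak3 differed by -0.26 ± 0.12 from t=0 (limma, adjusted p = 0.0676) and fell by 0.47 ± 0.05 without the 2 arrays (limma, adjusted p = 1.31e-09). A further 11 members also fell against t=0 without the 2 arrays and did not pass with them: Sdf2l1 by 0.56 ± 0.09, Herpud1 by 0.48 ± 0.10, P4hb by 0.41 ± 0.06, Pdia6 by 0.39 ± 0.06, Atf3 by 0.31 ± 0.08, Hsp90b1 by 0.26 ± 0.08, Pdia3 by 0.26 ± 0.05, Pdia4 by 0.24 ± 0.09, Sel1l by 0.24 ± 0.04, Xbp1 by 0.20 ± 0.09 and Pdia5 by 0.17 ± 0.06.

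**Figure D5:**
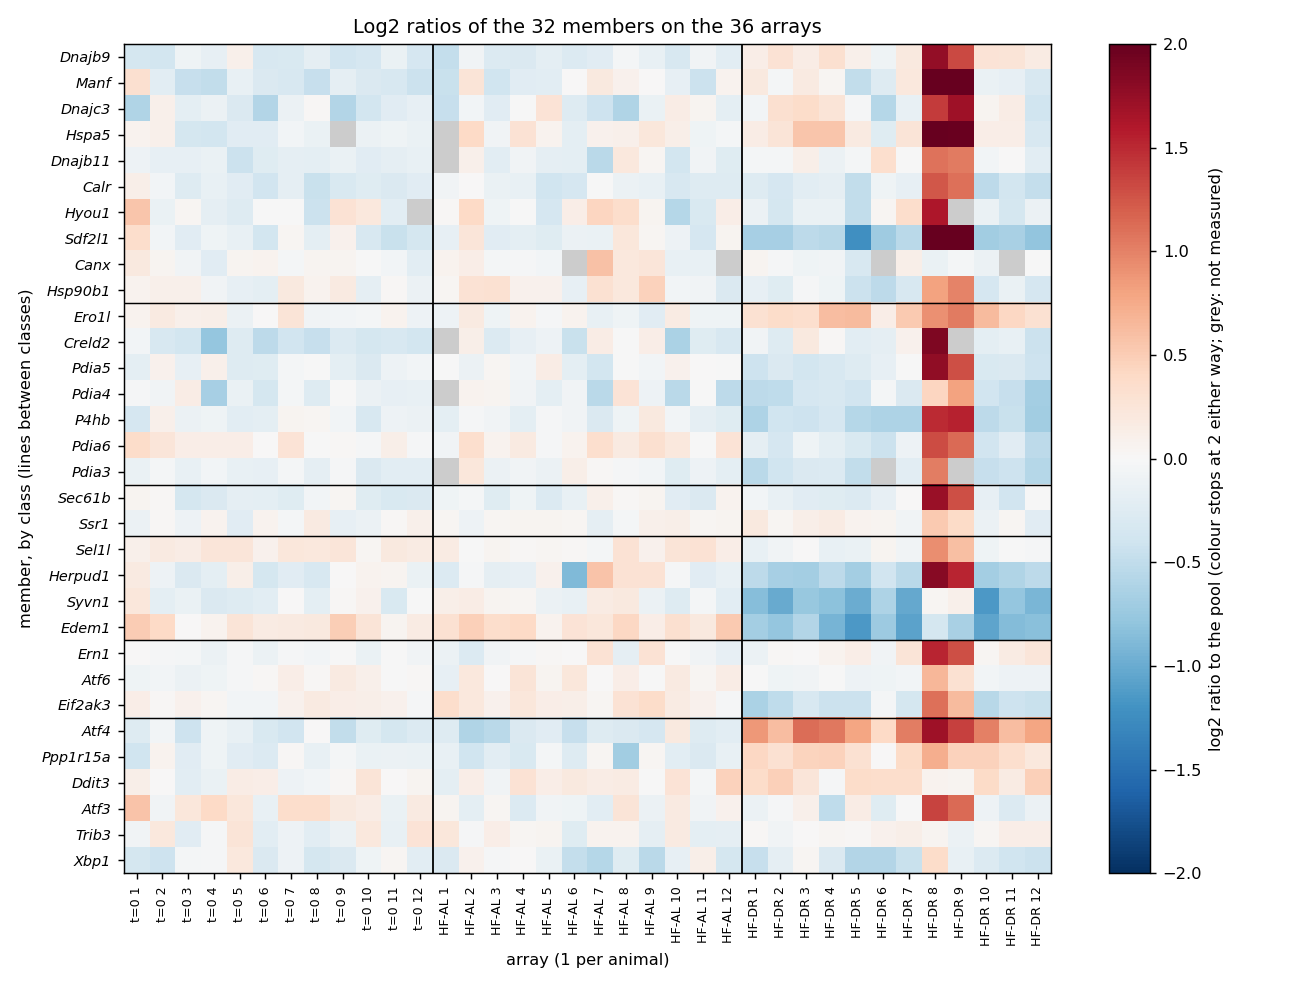
Log2 ratios to the pool of the 32 members (rows, by class) on the 36 arrays (columns, by group), red above and blue below the pool, with the colour stopping at 2 either way and grey where not measured. The columns of HF-DR 8 and HF-DR 9 are red for most members, the Edem1 row is blue and the Atf4 row red throughout HF-DR, and 0 members changed between t=0 and HF-AL.

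Other genes of these pathways, none of them members, are counted in the same way between HF-DR and HF-AL. For each gene named, the difference without the 2 arrays follows in brackets. The counts below stand beside 28.8% of all genes that rose and 35.9% that fell, and 30.5% and 38.4% without the 2 arrays. Of 28 genes known as targets of Atf4, 11 rose and 5 fell (median 0.15), and 11 rose and 10 fell without the 2 arrays (median -0.05). Psph, the last enzyme of serine synthesis, rose by 2.02 ± 0.10 (2.02), and Fgf21, a fasting-linked hormone, by 2.84 ± 0.16 (3.01). Sesn2, a sestrin induced by nutrient stress, fell by 1.73 ± 0.09 (-1.73). The Atf4 targets thus did not move as 1 group.

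Of 27 further ER folding genes, 10 rose and 4 fell, and 9 rose and 11 fell without the 2 arrays. Tmx1, a membrane-bound thioredoxin, rose by 0.54 ± 0.05 (0.49) and Fkbp9, a prolyl isomerase, fell by 0.67 ± 0.08 (-0.57). Of 13 collagen folding and modifying genes, 0 rose and 9 fell in both fits. P4ha2, a collagen prolyl hydroxylase subunit, fell by 0.76 ± 0.08 (-0.71), Fkbp10, a collagen chaperone, by 0.54 ± 0.06 (-0.49) and Plod2, a collagen lysyl hydroxylase, by 0.50 ± 0.06 (-0.49). Beside them, 10 of 11 fibroblast markers fell (median -1.01), 11 without the 2 arrays (median -0.89), and their mean was -1.47 to -0.79 in HF-DR against 0.06 to 0.36 in HF-AL. The part of fibroblast content in these falls was not tested.

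Of 29 further translocation and glycosylation genes, 16 rose and 2 fell, and 12 rose and 7 fell without the 2 arrays. Stt3b, a catalytic subunit of oligosaccharyl transferase, rose by 0.80 ± 0.13 (0.59) and Srprb, of the signal recognition particle receptor, by 0.53 ± 0.09 (0.39). Sec63, a partner of the Sec61 channel, fell by 0.26 ± 0.07 (-0.32). Of 22 further ERAD genes, 9 rose and 2 fell, and 11 rose and 4 fell without the 2 arrays. Ufd1, a cofactor of the extracting ATPase, rose by 0.65 ± 0.06 (0.72), Rnf5, a ubiquitin ligase, by 0.57 ± 0.06 (0.53) and Aup1, a recruiter of a conjugating enzyme, by 0.48 ± 0.05 (0.47). Man1b1, an ER mannosidase, fell by 0.38 ± 0.05 (-0.43). More of these genes rose than fell, whereas Edem1 and Syvn1 fell.

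Of 17 further genes of stress sensing, 5 rose and 7 fell in both fits. Creb3l2, an ER-bound transcription factor of the secretory pathway, fell by 1.20 ± 0.12 (-1.35), Mbtps1, the protease that cuts Atf6, by 0.63 ± 0.07 (-0.57), and Eif2ak1, the haem-regulated kinase upstream of Atf4, rose by 0.39 ± 0.05 (0.39). Of 9 mitochondrial chaperones and proteases, 8 rose and 0 fell (9 rose without the 2 arrays). Hspa9, the mitochondrial Hsp70, rose by 0.72 ± 0.06 (0.79), Hspe1, the Hsp10 partner of Hsp60, by 0.74 ± 0.07 (0.82) and Grpel1, a nucleotide exchange factor, by 0.64 ± 0.05 (0.69). Of 20 cytosolic heat shock genes, 8 rose and 4 fell (7 and 4 without the 2 arrays), with Chordc1, an Hsp90 co-chaperone, up by 0.62 ± 0.08 (0.70) and Hsp90aa1, the inducible cytosolic Hsp90, at -0.37 ± 0.08 (-0.39). Of 18 early response genes, which also mark tissue handling, 4 rose and 9 fell in both fits, with Jun at -1.01 ± 0.10 (-1.06) and Egr2 at -1.05 ± 0.13 (-0.96). Fosb went the other way and rose by 0.34 ± 0.05 with all arrays, its difference without the 2 arrays not being given here.

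Cell type markers moved in the same comparison, where 28.8% of all genes rose and 35.9% fell (30.5% and 38.4% without the 2 arrays). All 10 macrophage markers fell in both fits (median -0.75, and -0.71 without the 2 arrays), 6 of 10 adipocyte markers fell (5 fell and 2 rose without the 2 arrays), 3 of 7 endothelial markers fell and 1 rose in both fits, and 4 of 8 mesothelial markers fell (3 without the 2 arrays). Of 9 B and plasma cell markers, cells known for a large ER, 4 rose and 3 fell in both fits. Their mean ran from -0.97 to 0.38 in HF-DR and from -0.28 to 0.49 in HF-AL, and was -0.97 and -0.53 on HF-DR 8 and HF-DR 9. The part of cell content in the members' differences was not tested.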

How the data were processed

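Agilent 2-colour arrays of 36 mice were read from the deposited scanner output, whose red (Cy5) and green (Cy3) intensity values per spot the authors took from the scans, per the submitters' processing notes with version 9.5.3.1 of Agilent Feature Extraction. The authors' own log2 values, deposited per probe, followed each array's log2 Cy5 signal (r 0.988 to 0.996 over probes) and not the ratio, with column medians of 9.26 to 9.29. Their normalization and centring remain unknown, and they served as an alternative.

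From mean signals and median backgrounds, log2 ratios were made with normexp (offset 50, fitted without 84 spots over all arrays whose net signal was under -50) and loess (4 iterations) within arrays. Probes were kept where Cy5 was well above background on at least 9 of 12 arrays of a group. The brightest probe stood for a gene. limma 3.58.1 in R 4.3.3, with the data.table package (version 1.17.8), was fitted with a mean per group, two-sided, with Benjamini-Hochberg adjustment over 16497 genes. Only the limma fit was tested on simulated log2 ratios, drawn with 1 spread per gene in all groups and so without arrays like HF-DR 8 and HF-DR 9. The steps before the fit were not simulated. Spots well above background made up 45.2% to 86.6% of probes per array, 63.0% and 66.0% on HF-DR 8 and HF-DR 9, and the number of arrays limits the precision.

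The members and gene lists were chosen with earlier results of these data known. Members called in any comparison are given by their levels in each group, and of other lists up to 3 genes of smallest adjusted p and 1 going the other way.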

Additional observations from a re-analysis of the deposited data

How the results depend on the processing

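Over the 17 settings run, 7 to 20 members changed between HF-DR and HF-AL, 12 to 24 between HF-DR and t=0 and 0 between HF-AL and t=0. Between HF-DR and HF-AL, 20 changed (14 fell) without the 7 arrays with male tract or testis transcripts and 20 (14 fell) with array weights, 18 (5 rose, 13 fell) without HF-DR 8 and HF-DR 9, chosen after seeing the data, and 7 (4 rose) in a fit of the 2 groups alone. With slide as a block, which leaves out 9 arrays alone on their slide, HF-DR 8 and HF-DR 9 among them, 4 rose and 10 fell. HF-DR 8 and HF-DR 9 were also among the 7 arrays. Their array weights were 0.09 and 0.14, where the median weight was 1.15. These settings thus overlap with the one without the 2 arrays. Between HF-DR and t=0, 23 changed (14 fell) without the 7 arrays, 24 (13 fell) with array weights and 24 (14 fell) without HF-DR 8 and HF-DR 9, while 11 fell with slide as a block and 4 with median centring. The ERAD class median against t=0 was -0.64 without the 7 arrays. With the mean of a gene's probes, the sensors' median against HF-AL became 0.17, Atf6 0.17, Canx 0.18 (0.21 against t=0) and Sec63 0.043. Pdia5 against HF-AL turned to -0.30 with slide as a block, -0.29 without the 7 arrays, -0.23 with array weights and -0.24 without HF-DR 8 and HF-DR 9, and against t=0 to -0.22, -0.21 and -0.17 with the slide block, without the 7 arrays and without those 2. The authors' value table turned the split of all genes between HF-DR and HF-AL from 28.8% up and 35.9% down to 33.9% up and 30.2% down. The cause of these changes was not tested.

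With the replicate block, 12 members changed between HF-DR and HF-AL (8 rose, 4 fell), 14 between HF-DR and t=0 and 0 between HF-AL and t=0. Deviations of same-numbered animals correlated by -0.14 to 0.40 between HF-DR and HF-AL (over 0.1 in 9 of 12 pairs), -0.46 to 0.29 between HF-AL and t=0 (2 of 12) and -0.19 to 0.04 between HF-DR and t=0 (0 of 12). The medians were 0.21, 0.01 and -0.07 in that order. The labels name no shared litter or day, and the main fit did not pair the animals. Unlike-numbered animals were not correlated for comparison, so whether the numbers pair HF-DR and HF-AL animals was not settled.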
